A study of Oryza sativa with 6 samples.

Results

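The C3H genes of rice encode CCCH zinc-finger proteins, and 50 of them are described here out of 17905 genes that had a probe set assigned to 1 gene only. Members are all genes whose symbol or synonym in the RefSeq gene table is C3H or OsC3H followed by a number. The table holds 53 such genes, and 3 of them had no single-gene probe set. Each member is represented by 1 probe set, the one with the highest mean over the 6 arrays, and 14 members had more than 1 to choose from. Transcripts were measured in caryopses, the developing grains, collected 7 days after flowering. The tested genotype was gif1, a mutant with a lesion in GIF1 (GRAIN INCOMPLETE FILLING 1), an invertase of the cell wall that cleaves sucrose arriving in the filling grain, and it was set against wild-type Zhonghua11, a japonica cultivar. Each genotype gave 3 arrays, 1 for each biological repeat, and neither the number of plants in a repeat nor the genetic background of gif1 is given in the sources used here.

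CCCH zinc fingers hold a zinc ion between cysteine and histidine residues, and many of the proteins that carry them bind RNA. In plants the family is spread over several tasks: some members are core splicing factors, others sit in cytoplasmic RNA granules where transcripts are stored or degraded, and others enter the nucleus and act on transcription. An arginine-rich tandem zinc-finger branch of the family is known in Arabidopsis for its part in abscisic acid (ABA) and gibberellin responses and in seed germination. In rice, OsC3H10 has been described as a gene expressed mainly in seeds that responds to drought and ABA, OsC3H60 is the splicing factor subunit U2AF35A, which recognises the end of an intron, and OsC3H20 is Ehd4, a promoter of flowering.

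The deposited signals are linear, and a mean trimmed by 2% was nearly equal on all 6 arrays. The median signal differed, at 67.5, 72.6 and 72.4 on the gif1 arrays and 103.6, 83.7 and 95.8 on the wild-type arrays. The log2 difference, gif1 minus wild type, was -2.26 for poly-A control RNAs, -1.06 for ribosomal RNA probe sets and -0.53 for hybridization controls. For these and the median signal the genotypes did not overlap (exact two-sided permutation test, p = 0.1, which is the minimum for 3 arrays a genotype, and 0.175 after Benjamini-Hochberg adjustment over 7 measures). The 3′ to 5′ signal ratios of actin, GAPDH and cyclophilin, which follow RNA integrity, overlapped between genotypes, with log2 differences of -0.03, -0.10 and -0.19 (exact permutation p = 0.9, 0.2 and 0.5). The GIF1 probe set read 173.3, 100.9 and 190.4 in gif1 and 654.2, 428.6 and 607.7 in wild type, a log2 difference of -1.77 (SE 0.28, limma adjusted p = 0.00254), and the groups did not overlap. Of 8 matched starchy endosperm markers 6 were lower in gif1, summing to signals of 335730 to 375870 in gif1 and 458082 to 593377 in wild type. That count depended on scaling: 1 marker (RAG1) was lower with quantile normalization, and 1 was lower and 2 (NFYB1 and SWEET11) were higher with median centring and with scaling to the hybridization controls. Of all tested genes, 5.17% were lower with quantile normalization, 1.82% with median centring and 1.26% with scaling to the hybridization controls. With the last 2 of these, 26.9% and 44.9% of all tested genes were higher. Of 5 green pericarp markers 4 were higher (sums of 93789 to 114891 in gif1 and 74776 to 79974 in wild type). The other, CAB2R, had every gif1 array below the wild-type arrays but did not pass (log2 difference -0.25, SE 0.09, limma adjusted p = 0.106). Of 5 aleurone and embryo markers 3 were lower and OSH1 was higher (sums of 18868 to 21052 in gif1 and 45168 to 80596 in wild type). Beside the marker counts as deposited, 5.63% of all tested genes were lower and 7.92% were higher. All of these markers gave a signal on every array, the lowest being 345.6. A caryopsis is a mixture of these tissues, so fewer cells of a type and less RNA per cell cannot be told apart, and the part that the markers and controls have in the results below was not tested.

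The C3H members covered a wide range of signal, and few of them differed between the genotypes. Mean signals over the 6 arrays ran from 36.55 to 13049, with 23 members at 1000 or more, 23 between 100 and 1000 and 4 under 100. The brightness of a probe set also depends on its probes, so these values do not order the transcripts by abundance. The summed signal of the 50 members was 85130, 82204 and 79511 on the gif1 arrays, against 91448, 98210 and 98703 on the wild-type arrays. The 5 brightest probe sets made up 43.8% to 46.3% of that sum in gif1 and 47.6% to 48.7% in wild type. These sums are on the scale as deposited. Scaling to the hybridization controls multiplies the gif1 arrays by 1.06 to 1.32 and the wild-type arrays by 0.78 to 0.87. The direction of the difference in the sums therefore depends on scaling.

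**Figure D1:**
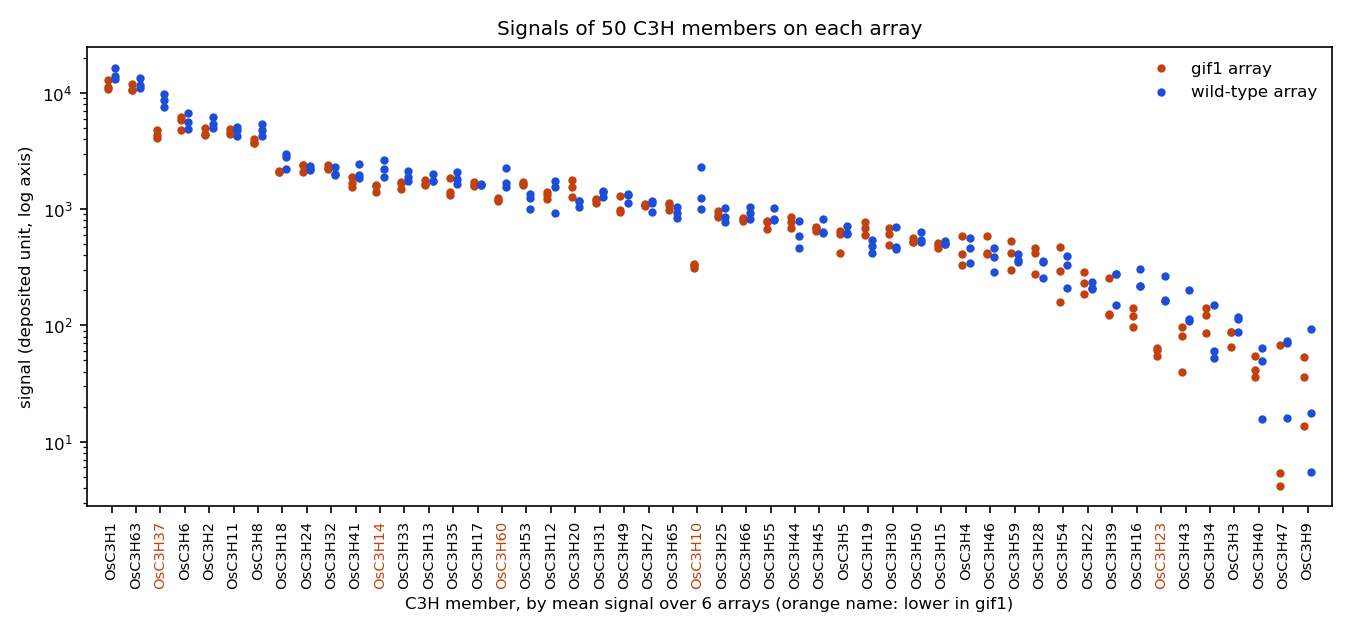
Deposited signal (log axis) of the 50 C3H members on each array, with gif1 in orange to the left of wild type in blue for every member, ordered by the mean over the 6 arrays. The 5 members with orange names are lower in gif1, and OsC3H10 shows the widest gap between the genotypes.

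Of the 50 members 47 passed the filter on dim probe sets (a mean signal of at least 74.1) and were tested with limma. In gif1, 5 members fell and 0 rose at an adjusted p under 0.05, where p-values were adjusted over all 28597 tested probe sets, and 42 did not pass. The share that fell was 10.6%, beside 5.63% of the 15423 tested genes taken with 1 probe set each, and the genes that rose made up 7.92% of those. In either direction the share of members called, 10.6%, was below the 13.6% of all tested genes. At an unadjusted p under 0.05, 10 members were lower (21.3%, against 13.0% of all tested genes) and 3 were higher (6.38%, against 17.1%). The median log2 difference, gif1 minus wild type, was -0.09 over the members and 0.03 over all tested genes, and 31 members had a negative difference and 16 a positive one (66.0% negative, against 46.98% of all tested genes). These signs are on the scale as deposited. Most of the 31 turned positive with each array centred on its median and with scaling to the hybridization controls. Differences lay within 0.5 of 0 for 40 members (85.1%), against 74.2% of all tested genes.

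OsC3H10 showed the largest difference among the members. Its signals were 331.2, 309.2 and 339.8 in gif1 and 1258.0, 1001.0 and 2304.5 in wild type. The gif1 arrays lay close together, the wild-type arrays were spread, and even the lowest wild-type array was well above the highest gif1 array. The means were 327 ± 15.8 in gif1 and 1521 ± 690 in wild type (SD, n = 3 each), so that the signal was 4.66-fold lower in gif1, and on the log2 scale the difference was -2.07 (SE 0.26, limma adjusted p = 0.000802). Its call held with each array left out in turn, with log2 differences from -2.32 to -1.73 and adjusted p-values of at most 0.00704.

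OsC3H37, a member with one of the brightest probe sets, fell as well. It read 4802.0, 4107.8 and 4348.2 in gif1 and 8607.4, 7619.4 and 9721.9 in wild type, and every gif1 array was below every wild-type array by a wide margin. The means were 4419 ± 353 in gif1 and 8650 ± 1052 in wild type (SD, n = 3 each), a log2 difference of -0.96 (SE 0.12, limma adjusted p = 0.000862). Without any single array the difference stayed between -1.05 and -0.87, with adjusted p-values of at most 0.00762.

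OsC3H23, a dim probe set, was lower in gif1 by the test, but the size of the difference is uncertain. The signals were 61.1, 54.4 and 64.2 in gif1 and 160.9, 264.9 and 166.9 in wild type. The groups did not overlap, and wild-type replicate 2 was the highest array. All 3 gif1 signals lay under 74.1, the minimum mean for testing, and under the median signal of their own arrays, so the probe set was tested only through its wild-type signals and no fold is given. On the log2 scale the difference was -1.44 (SE 0.38, limma adjusted p = 0.0308), and the call was lost without any single array except wild-type replicate 1, with adjusted p-values up to 0.119. It was also lost when no probe set was filtered out (limma adjusted p = 0.0950), with quantile normalization (0.0847), with median centring (0.0667) and with scaling to the hybridization controls (0.0819). OsC3H23 and OsC3H22 are the only 2 members that stand next to each other in the order of genes in the RefSeq table. OsC3H22 read 184.7, 285.3 and 230.6 in gif1 and 209.7, 235.6 and 206.0 in wild type, so its groups overlapped (log2 difference 0.08, SE 0.26, limma adjusted p = 0.870; 95% interval from -0.48 to 0.64). Within each array, the log2 signal of OsC3H23 minus that of OsC3H22 was -1.36, -2.07 and -1.60 in gif1 and -0.35, 0.16 and -0.28 in wild type, a difference of -1.52 between genotypes (exact two-sided permutation test, p = 0.1, the minimum for this design, for 1 comparison chosen after the values were seen). This contrast reuses the OsC3H23 signals, whose groups were already known not to overlap, so its p-value adds no support to the OsC3H23 call.

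The remaining called members, OsC3H60 and OsC3H14, changed less. OsC3H60, which is U2AF35A, the small subunit of the factor that marks the intron's 3′ end for splicing, read 1251.1, 1191.0 and 1175.4 in gif1 and 1542.2, 1673.3 and 2235.8 in wild type (log2 difference -0.57, SE 0.16, limma adjusted p = 0.0381). OsC3H14 read 1397.2, 1589.6 and 1597.0 in gif1 and 1901.5, 2201.3 and 2663.1 in wild type (log2 difference -0.55, SE 0.15, limma adjusted p = 0.0360). For both genes the groups did not overlap and wild-type replicate 3 was the highest array. Both calls were lost without any single array except wild-type replicate 1, with adjusted p-values up to 0.121 for OsC3H60 and 0.133 for OsC3H14, and without wild-type replicate 3 the differences were -0.41 and -0.42. The other rice gene for this subunit, U2AF35B (OsC3H38), is named here only as its counterpart and is not analysed, since no single-gene probe set is listed for it, and whether the OsC3H60 probes also bind its transcript was not tested.

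**Figure D2:**
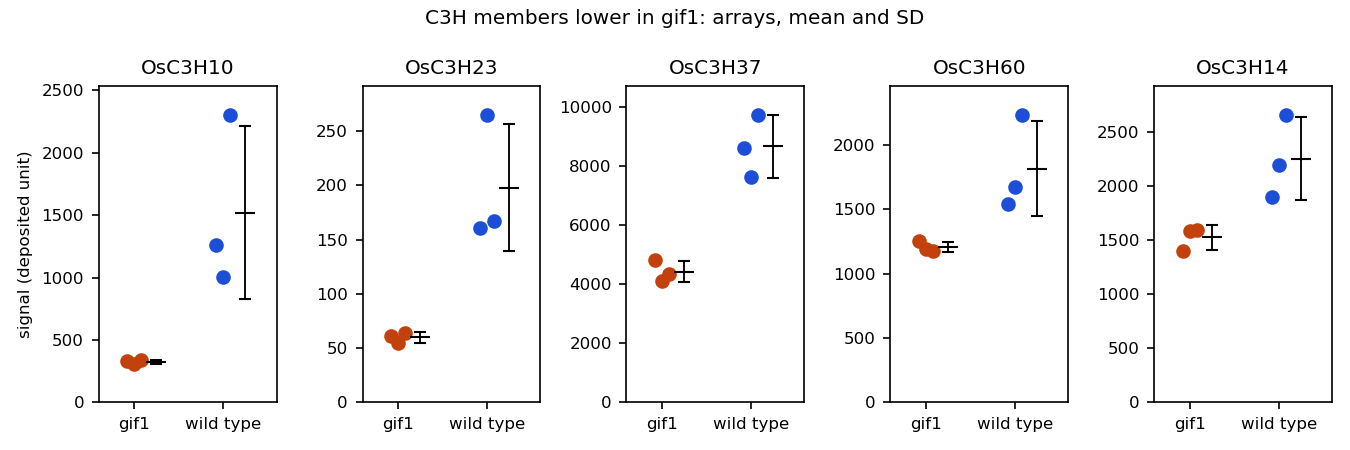
Signals (deposited unit, linear axis from 0) of the 5 C3H members lower in gif1, with each array as a point, gif1 in orange on the left and wild type in blue on the right, and the mean with its SD (n = 3) as a black bar. In every panel the gif1 points lie below all wild-type points, from 309.2 to 339.8 against 1001.0 to 2304.5 for OsC3H10.

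OsC3H16 and OsC3H43, which are dim, had larger differences than OsC3H60 and OsC3H14 but did not pass. OsC3H16 gave 97.5, 120.1 and 140.7 in gif1 and 216.2, 305.0 and 217.0 in wild type (log2 difference -0.94, SE 0.30, limma adjusted p = 0.0623). OsC3H43 gave 97.7, 81.0 and 40.1 in gif1 and 108.2, 112.8 and 200.9 in wild type (-0.82, SE 0.45, limma adjusted p = 0.261). For both, the 3 highest arrays were the wild-type ones. The gif1 mean of OsC3H43, 72.9, lay under 74.1, the minimum mean for testing, so it was tested only through its wild-type signals. Over the family, the gif1 arrays lay below the wild-type arrays for 14 of the 47 tested members, of which 5 were called and 9 were not, beside 15.5% of all tested genes. They lay above the wild-type arrays for 3 members, beside 20.0% of all tested genes.

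Those 3 members, none of which passed, had the largest positive differences apart from OsC3H34. OsC3H19 read 688.2, 771.8 and 593.8 in gif1 and 420.6, 542.3 and 481.1 in wild type (log2 difference 0.49, SE 0.18, limma adjusted p = 0.102). OsC3H53 read 1646.9, 1694.1 and 1622.6 in gif1 and 1250.2, 1346.1 and 1006.2 in wild type (0.47, SE 0.15, limma adjusted p = 0.0593). The flowering regulator OsC3H20 (Ehd4) read 1791.5, 1272.8 and 1551.5 in gif1 and 1168.3, 1049.7 and 1179.5 in wild type (0.42, SE 0.16, limma adjusted p = 0.0993). OsC3H34 (0.44, SE 0.47) and OsC3H44 (0.35, SE 0.21) had overlapping groups, with adjusted p-values of 0.574 and 0.287. For OsC3H34 the wild-type arrays alone ran from 52.9 to 149.6.

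**Figure D3:**
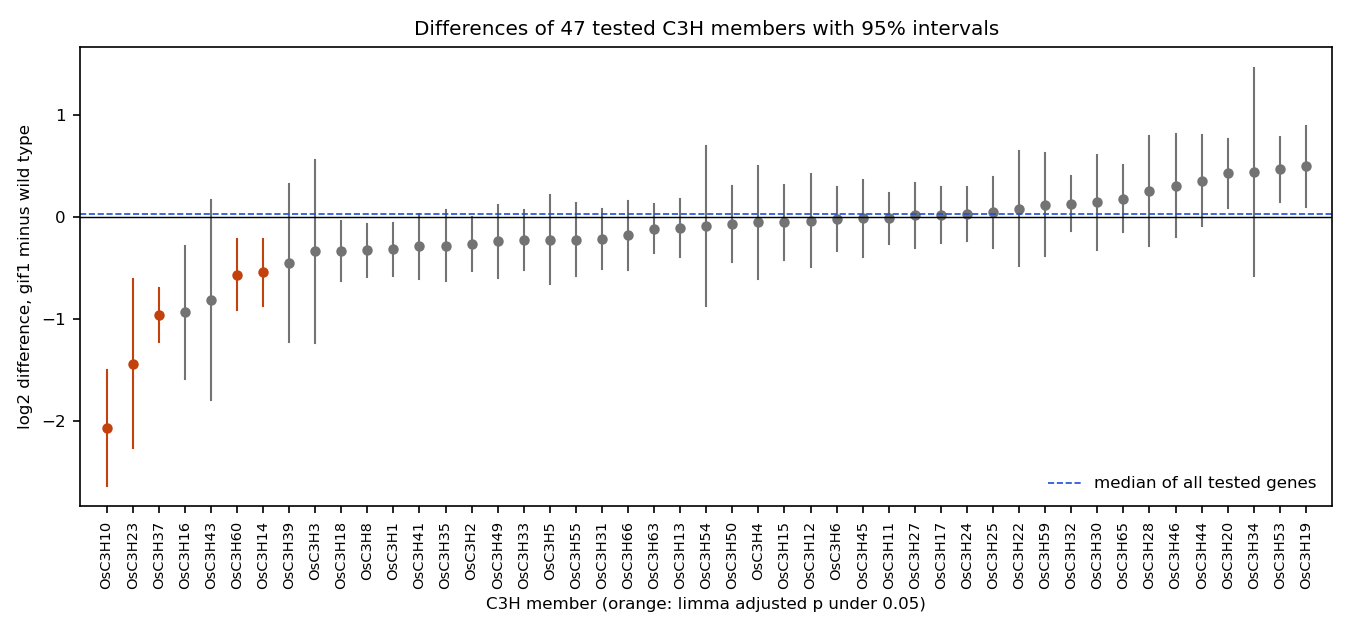
Log2 difference, gif1 minus wild type, of the 47 tested C3H members (points) with the 95% interval from limma (lines), sorted from lowest to highest, the 5 called members in orange and the median of all tested genes, 0.03, as a dashed line. The values run from -2.07 for OsC3H10 to 0.49 for OsC3H19, and 40 of them lie within 0.5 of 0.

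The members with the brightest probe sets were close in the 2 genotypes, except OsC3H37. OsC3H1 read 12912, 11200 and 10702 in gif1 and 14001, 16376 and 13103 in wild type. Although these groups did not overlap, the difference of -0.32 did not pass (SE 0.12, limma adjusted p = 0.103; 95% interval from -0.58 to -0.06). OsC3H63 read 10558, 11954 and 10661 in gif1 and 11026, 11701 and 13280 in wild type, with overlapping groups (-0.12, SE 0.11, limma adjusted p = 0.522; interval from -0.36 to 0.12). OsC3H6 averaged 5622 ± 746 in gif1 and 5726 ± 907 in wild type (SD, n = 3 each), with overlapping groups (-0.02, SE 0.14, limma adjusted p = 0.934; interval from -0.34 to 0.29). OsC3H2 is OsDOS, a nuclear protein known for delaying leaf senescence. It averaged 4560 ± 334 in gif1 and 5514 ± 628 in wild type, without overlap (-0.27, SE 0.12, limma adjusted p = 0.167; interval from -0.53 to -0.007). Among all tested members the 95% interval lay within 1 of 0 for 39, which bounds their change below that size in either direction on the scale as deposited.

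A few further members have a described role and are named for that reason, after their values were seen. OsC3H46, known as LIC, acts in brassinosteroid signalling and leaf angle, and its groups overlapped, at 584.0, 421.2 and 409.3 in gif1 and 465.5, 386.5 and 288.9 in wild type (0.30, SE 0.23, limma adjusted p = 0.420). OsC3H41 is MKRN, a makorin-type RING finger protein, and read 1874.6, 1534.8 and 1684.5 in gif1 and 1865.5, 1951.7 and 2452.6 in wild type (-0.29, SE 0.15, limma adjusted p = 0.219). OsC3H12, described in resistance to bacterial blight, averaged 1313 ± 80.3 in gif1 and 1398 ± 426 in wild type (-0.04, SE 0.21, limma adjusted p = 0.922). None of these 3 differences passed.

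The 3 members below the filter were OsC3H9, OsC3H40 and OsC3H47. OsC3H47, described in drought and salt tolerance, read 68.1, 5.4 and 4.2 in gif1 and 72.7, 16 and 70.3 in wild type. OsC3H9 lay between 13.7 and 53.4 in gif1 and between 5.5 and 92.8 in wild type, and OsC3H40 between 36.3 and 55.1 in gif1 and between 15.7 and 64.1 in wild type. All 3 had overlapping groups, and when every probe set was tested none of them passed (limma adjusted p from 0.567 to 0.953). Their log2 differences had standard errors of 0.60 to 0.68.

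Members with several probe sets could be read more than once. Of the 20 other probe sets 14 were bright enough to be tested, for 12 members, and 11 of the 14 had the same sign as the probe set chosen. The sign differed for OsC3H5 (-0.23 for the chosen probe set and 0.50 for the other), OsC3H11 (-0.01 and 0.15) and OsC3H55 (-0.23 and 0.23). None of the 14 passed. None of the 5 members that fell has a further single-gene probe set, so their differences rest on 1 probe set each. For OsC3H8 the chosen probe set read 3674, 3733 and 3989 in gif1 against 4256, 5380 and 4754 in wild type (-0.33, limma adjusted p = 0.0975). Its second one read 812.6, 906.5 and 597.4 in gif1 against 1349.8, 1084.4 and 1010.2 in wild type (-0.57, limma adjusted p = 0.0703). Both had their gif1 arrays below the wild-type ones, and neither passed. When the 2 were averaged, OsC3H8 did pass (-0.45, SE 0.13, limma adjusted p = 0.0408). For OsC3H53 the second probe set read 320.6, 317.2 and 302.9 in gif1 and 268.5, 251.8 and 259.8 in wild type, higher in gif1 like the first and not passing either (limma adjusted p = 0.462). The chosen probe sets of OsC3H2, OsC3H12, OsC3H18 and OsC3H33 end in _s_at or _x_at, which marks probes that can bind transcripts of related genes.

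Replicates were tighter in gif1. The SD of the log2 values over the 3 arrays had a median of 0.11 in gif1 and 0.18 in wild type over the 47 tested members, and it was larger in wild type for 32 of them (68.1%). Over all tested genes the medians were 0.17 in gif1 and 0.23 in wild type, and 64.9% had the larger SD in wild type, a share near that of the members.

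Since OsC3H10 is known as an ABA-responsive seed gene, it was set beside a list of genes of ABA response and seed maturation. The list was chosen with earlier results of these data known. Of 23 listed genes found by symbol, 19 were measured and tested, 8 fell in gif1 (beside 5.63% of all tested genes), none rose (beside 7.92%), and 11 did not pass, with a median log2 difference of -0.48. The genes that fell were the dehydrins RAB16B, RAB16C and rab25, which protect cells during drying, the late embryogenesis protein Emp1, the membrane protein OsPM19L1, and OsPP2C08, OsPP2C30 and PP2C68, protein phosphatases that restrain ABA signalling. RAB16B, rab25 and Emp1 are the aleurone and embryo markers given above as lower, and VP1 is on both lists as well. The counts of these lists are thus not separate observations. Rab25 read 3512, 3738 and 3854 in gif1 and 11444, 12937 and 22701 in wild type (-2.01, SE 0.20, limma adjusted p = 0.00027). OsPM19L1 read 588.7, 667.9 and 662.1 in gif1 and 2854.1, 1719.1 and 5107.9 in wild type (-2.17, SE 0.30, limma adjusted p = 0.00123). In both, as in OsC3H10, the gif1 arrays lay close together and wild-type replicate 3 was the highest. RAB16B (841.2 at most in gif1 and 1993.1 at least in wild type) and Emp1 (14413 at most in gif1 and 27850 at least in wild type) had their highest array in wild-type replicate 3 too. OsPP2C08 was highest in wild-type replicate 2 (1448.2). Outside the list, the starchy endosperm markers that were lower as deposited also had their highest array in wild-type replicate 3. The 11 that did not pass are named after their values were seen. The dehydrins Dhn1 (0.26, SE 0.18) and RAB16D (0.39, SE 0.51) had positive differences and overlapping groups, unlike the dehydrins that fell, and Dhn1 passed as higher with median centring and with scaling to the hybridization controls. LEA19 (-0.35, SE 0.12) and the phosphatase OsPP2C51 (-0.18, SE 0.33) did not pass. The ABA-activated kinases SAPK2, SAPK6, SAPK8, SAPK9 and SAPK10 did not pass, nor did the transcription factor TRAB1 (-0.24, SE 0.17). SAPK8 passed as higher with median centring, and SAPK2, SAPK6 and SAPK8 did with scaling to the hybridization controls. Under both of these scalings OsPP2C30 and PP2C68 lost their calls as lower. The seed maturation regulator VP1 differed by -0.73 with overlapping groups (SE 0.23, limma adjusted p = 0.0636).

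**Figure D4:**
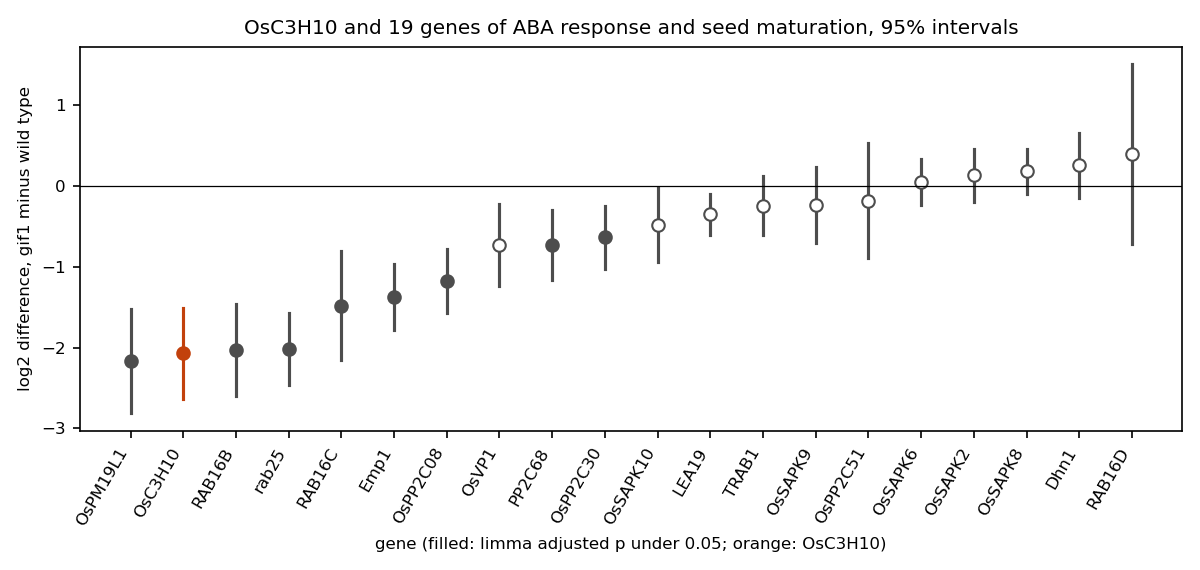
Log2 difference, gif1 minus wild type, of OsC3H10 (orange) and 19 genes of ABA response and seed maturation, with 95% intervals from limma, sorted from lowest to highest, and filled points for an adjusted p under 0.05. OsC3H10 at -2.07 stands between OsPM19L1 at -2.17 and RAB16B at -2.03, and the 8 listed genes that fell lie between -2.17 and -0.63.

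A second list held genes of mRNA decay and small-RNA silencing, the processes in which several CCCH proteins take part in other plants. Of 14 genes found by symbol 13 were tested, 11 of them argonautes, the proteins that carry small RNAs to their targets. In gif1, 2 rose (beside 7.92% of all tested genes), none fell (beside 5.63%) and 11 did not pass, with a median log2 difference of 0.18. The 2 that rose were AGO2, at 1885.1, 1995.1 and 2460.3 in gif1 and 1350.7, 1411.2 and 1260.3 in wild type (0.64, SE 0.14, limma adjusted p = 0.0146), and AGO1D, at 790.4, 845.7 and 769.2 in gif1 and 468.4, 543.1 and 573.5 in wild type (0.59, SE 0.16, limma adjusted p = 0.0376). The poly(A)-binding protein PAB1 (0.25, SE 0.12) and the exosome subunit RRP46 (-0.01, SE 0.19), named after their values were seen as the 2 listed genes outside the argonautes, did not pass.

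How arrays are scaled to each other moved the counts of C3H members more than any other choice. The median log2 difference of all tested probe sets was -0.06 as deposited, 0.01 with quantile normalization, 0.28 with each array centred on its median and 0.45 with arrays scaled to the hybridization controls. Quantile normalization gave 4 members lower and 0 higher, beside 5.17% and 7.03% of all tested genes. Median centring gave 2 lower (OsC3H10 and OsC3H37) and 4 higher (OsC3H19, OsC3H20, OsC3H44 and OsC3H53), beside 1.82% and 26.9%. Scaling to the hybridization controls gave 1 lower, OsC3H10, and 16 higher, beside 1.26% and 44.9%. OsC3H10 was thus lower in gif1 under all 4 scalings, at -2.07, -2.06, -1.73 and -1.55, and relative to the median of all tested probe sets it lay between -2.07 and -2.0. OsC3H37 stood at -0.43 with control scaling, short of the threshold (limma adjusted p = 0.0518), and between -1.01 and -0.88 relative to that median under the 4 scalings. OsC3H60 and OsC3H14 stood at -0.04 and -0.02 with control scaling (limma adjusted p = 0.889 and 0.945), and OsC3H23 at -0.99 (limma adjusted p = 0.0819). Relative to the median of all tested probe sets 25 members lay below and 22 above as deposited, with median centring and with control scaling, and 34 below and 13 above with quantile normalization. These counts depend on the reference. As deposited, the median of all tested genes (0.03) was higher than that of all tested probe sets (-0.06), and more members lay below it. The ABA list had 8 genes lower and 0 higher as deposited and with quantile normalization, 6 lower and 2 higher with median centring, and 6 lower and 4 higher with control scaling. The mRNA decay and silencing list had 2 higher as deposited, 4 with median centring and 8 with control scaling.

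The count also rested on single arrays and on the model. Without wild-type replicate 1, 7 members were lower (6.91% of all tested genes), the 2 gained being OsC3H8 and OsC3H18. Without wild-type replicate 2 (3.88%), wild-type replicate 3 (3.64%), gif1 replicate 1 (2.92%), gif1 replicate 2 (2.95%) or gif1 replicate 3 (2.47%), 2 members were lower each time, OsC3H10 and OsC3H37. Without the intensity trend in limma 3 members were lower (1.22%), and with no filter on dim probe sets 4 were (3.40%), OsC3H23 being the one lost. With a stricter filter on dim probe sets 1 member, OsC3H53, was higher, beside 12.5% of all genes then tested.

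**Figure D5:**
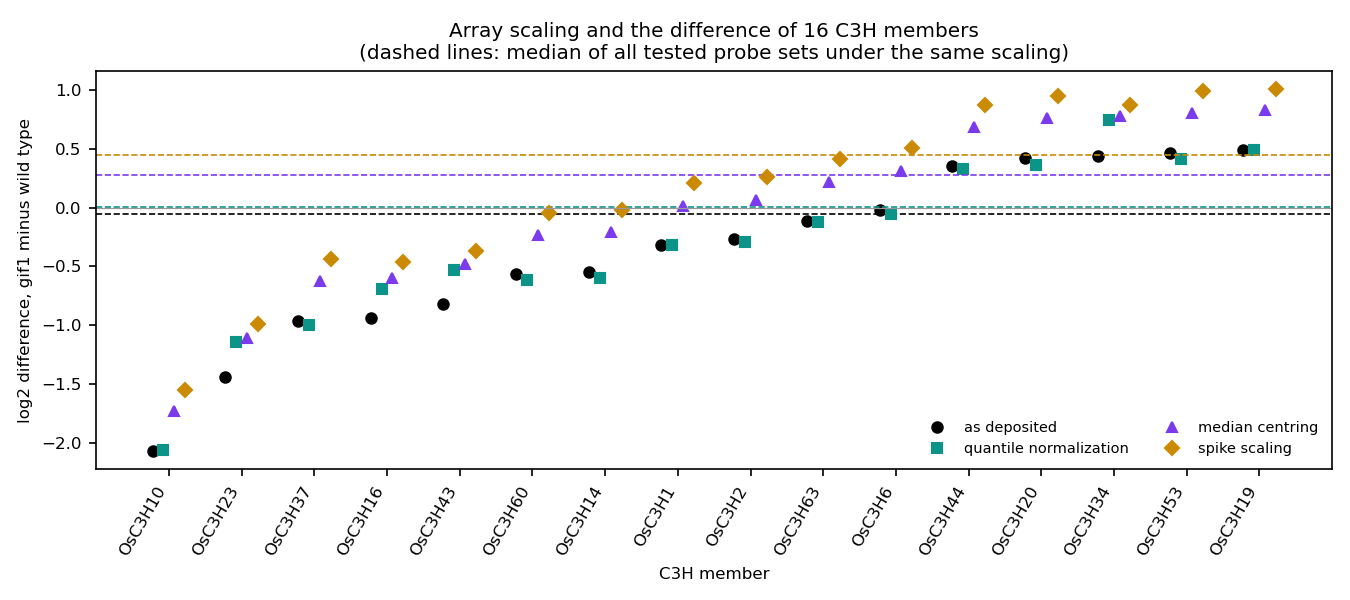
Log2 difference, gif1 minus wild type, of 16 C3H members under 4 ways of scaling the arrays (symbols), with the median of all tested probe sets under each as a dashed line in the same colour. OsC3H10 lies lowest under each scaling (-2.07 as deposited, -1.55 with spike scaling), while the members near 0 move up together with the dashed lines, from -0.06 as deposited to 0.45 with spike scaling.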

How the data were processed

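The authors deposited 1 intensity signal per probe set on a linear scale. The submitters' processing notes name GCOS 1.4. Background correction, probe summary and scaling are not given in the sources used here. Of 57381 probe sets 187 controls were left out. Before taking log2, 17.7 (the lower quartile of the signals) was added, which understates fold changes where signals are low. The test covered the 28597 probe sets whose mean reached 74.1, the median.

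Genotypes were compared with limma 3.58.1 in R 4.3.3 (lmFit, eBayes with intensity trend, genotype as the only term, Benjamini-Hochberg over all tested probe sets, threshold 0.05). The fit was also run on simulated data with independent noise and no scaling difference between genotypes, so that run does not bear on scaling. Figures used Python 3.11.15 and matplotlib 3.10.9. For arrays, their number (6) limits the precision.

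Names came from the RefSeq table of assembly ASM3414082v1. No coordinates or sequences are printed, and sequence motifs were not analysed here. Members and lists were chosen with earlier results of these data known. By rule, the genes named are the called members, the 5 brightest, the 5 largest differences in each direction, OsC3H10, GIF1 and the called list members. Members whose call changed with scaling could be named as well, and not all of them are. Others (members with a described role, the neighbour of OsC3H23, those under the filter or with several probe sets, and listed genes that did not pass) were named after their values were seen. Members and lists are described by counts, with no test over a list. The endosperm, aleurone and pericarp markers named in the plan were matched by symbol, and those not found were left out. Same-numbered replicates did not deviate together (correlations from -0.05 to 0.02), so numbers were not taken as pairs.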

Additional observations from a re-analysis of the deposited data

How the results depend on the processing

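Of the 17 alternatives, all kept OsC3H10 lower in gif1 and past the threshold (-2.32 to -1.55), and all but control (spike) scaling did so for OsC3H37. The number of C3H members lower in gif1 was 5 as reported, 2 with median centring, 1 with spike scaling, 3 without the intensity trend and 3 with the replicate block (adjusted p = 0.0578 for OsC3H23 and 0.0550 for OsC3H60), and ran from 2 to 7 with single arrays left out. The number higher was 0 as reported, 4 with median centring, 16 with spike scaling and 1 with the stricter filter (OsC3H53, limma adjusted p = 0.0391). Over all tested probe sets, 1716 lower and 1709 higher became 613 and 5817 with median centring, 430 and 9690 with spike scaling, and 416 and 368 without the intensity trend. With no filter 1122 were lower, and 4 C3H members were, without OsC3H23 (limma adjusted p = 0.0950). Quantile normalization also ended the call of OsC3H23 (0.0847). With single arrays left out, 709 to 2005 were lower and 727 to 2289 higher. Members whose sign turned had not passed as reported. Most members with a negative difference as reported became positive with median centring and with spike scaling. Values are given next for the 5 brightest apart from OsC3H37. With median centring and with spike scaling OsC3H1 stood at 0.018 and 0.21, OsC3H63 at 0.22 and 0.41, OsC3H6 at 0.31 and 0.51, and OsC3H2 at 0.067 and 0.26, and of these OsC3H63 and OsC3H6 passed as higher with spike scaling (limma adjusted p = 0.0313 and 0.0273). OsC3H63 stood at 0.34 when its 2 probe sets were averaged, the second being dim, and OsC3H6 ran from -0.135 to 0.0924 with single arrays left out, turning positive without wild-type replicate 3 or gif1 replicate 3. The cause of the other changes was not tested. Array weights brought OsC3H16 past the threshold (limma adjusted p = 0.0485). Dim signals limit what can be said of OsC3H9, OsC3H23, OsC3H40, OsC3H43 and OsC3H47. Averaging probe sets brought OsC3H8 past the threshold (limma adjusted p = 0.0408).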
